A study of Mus musculus with 8 samples.

Results

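The 9 genes described here, Glul, Slc1a2, Rhbg, Oat, Axin2, Rnf43, Znrf3, Lgr5 and Tbx3, are genes of the hepatocytes around the central vein whose activity depends on β-catenin, together with feedback regulators of the Wnt pathway. They were chosen by symbol from knowledge of the pathway, with earlier results of these data known, and make up 9 of the 23337 gene symbols counted. All 9 were counted in each of the 8 samples, with between 148 and 81116 reads per gene and sample, and all 9 passed the filter on low counts that left 14328 genes for testing. RNA from whole liver of 12-week-old C57BL/6 mice was sequenced in 4 groups of 2 samples. The WT groups were fasted overnight, or fasted overnight and then refed for 4 h. The groups labelled Hrd1-/-, called HRD1Alb in the study, received the same feeding. HRD1, encoded by Syvn1, is an E3 ubiquitin ligase of the endoplasmic reticulum. In the study's methods HRD1Alb mice carry 2 floxed HRD1 alleles and a Cre transgene driven by the albumin enhancer and promoter, and the controls carry the floxed alleles without Cre. The deletion is therefore directed to cells with albumin promoter activity, chiefly hepatocytes, from early liver development on, while the RNA comes from all cells of the organ. The labels do not say whether the 2 samples of a group came from separate mice, so p-values measure the spread between these samples, which may be partly technical.

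Liver lobules are zoned from the portal tract, where blood enters, to the central vein, where it leaves. Endothelial cells of the central vein release Wnt ligands and the potentiator R-spondin 3. In the hepatocytes next to them, Wnt binding to Frizzled and LRP5 or LRP6 receptors stabilises β-catenin, which joins TCF/LEF factors on DNA and keeps pericentral genes on. RNF43 and ZNRF3 remove Frizzled receptors from the cell surface, R-spondins acting through LGR4 and LGR5 block that removal, and AXIN2 returns β-catenin to the complex that degrades it, so that targets of the pathway also limit it. Pericentral hepatocytes capture ammonia that escaped the portal urea cycle by making glutamine from glutamate, and several of the 9 genes serve that step.

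A single promoter sequence is shown, because it is the only one among those examined that holds a core TCF/LEF motif next to a gene of this group. RefSeq promoters on GRCm38.p6, from 250 bases before to 50 bases after an annotated start, were matched for 5 of the 9 genes as 6 promoters (Axin2, Glul, Oat, Slc1a2 and 2 for Rnf43). Lgr5, Rhbg, Tbx3 and Znrf3 were not matched. The letters CTTTGAT, searched on both strands, occurred in 1 of these 6 promoters and in 3.7% of all 32851 promoters of that length. The letters CTTTGAA occurred in 0 of 6 and in 5.1% of all. The motif lies in the Slc1a2 promoter as its reverse complement, in capitals below, with its first base at position -207 from the start, within the window chr2:102706204-102706263 on the plus strand.
Slc1a2: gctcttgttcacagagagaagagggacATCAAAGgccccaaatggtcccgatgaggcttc
The match is a description of letters and no evidence that a factor bound there. This start lies inside the longer GENCODE span of Slc1a2 (GRCm38 chr2:102658659-102790784).

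Levels are given as normalised read counts in CPM, counts scaled by each library's total and composition, and differences as log2 values with their standard error (SE) from edgeR's quasi-likelihood fit of all 8 samples. Adjusted p is its Benjamini-Hochberg value over the 14328 genes, and a gene is said to rise or fall only at an adjusted p under 0.05. Total counts per sample ran from 40210576 to 49117080. Syvn1, the targeted gene, was at 111 and 99.8 CPM in the fasted WT samples and at 32.6 and 31.5 CPM in the fasted HRD1Alb samples. After refeeding it was at 637 and 305 CPM in WT and at 453 and 132 CPM in the libraries labelled HRD1Alb. The fasted groups did not overlap, whereas replicate 1 of the refed libraries labelled HRD1Alb lay above WT replicate 2, so the gene-wide Syvn1 count does not bear out the genotype label of that library. The log2 difference of Syvn1 was -1.72 (SE 0.56, edgeR adjusted p = 0.170) fasted and -0.69 (SE 0.55, edgeR adjusted p = 0.391) refed, and the refed value was -1.84 without that library and -0.06 without replicate 2. Which exons were removed was not used here, and a gene-wide count can include transcript left after a deletion. Replicate 2 of the refed libraries labelled HRD1Alb stood apart in another way. Its log2 difference from replicate 1 fell with exon length (Spearman's rho = -0.505 over 12943 genes, against -0.118 to 0.0101 in the other 3 groups), and 3204 genes differed at least 2-fold within the pair against 424 to 1141 in the other pairs. Results of the 9 genes on the refed libraries labelled HRD1Alb are therefore also given without either of them, and those of other genes where leaving one out changed the call or moved the value by over 1.5 times. A fit without 1 library leaves 1 library in its group and holds no spread within that group. Calls and adjusted p from such fits are therefore no measure of agreement between replicates. Comparisons named HRD1Alb refeeding use the libraries so labelled.

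With feeding states pooled, summed markers of macrophages and of lymphocytes separated the genotypes, and those of the other cell types overlapped. Within each feeding state the stellate and endothelial sums also separated, higher in libraries labelled HRD1Alb. Hepatocyte and cholangiocyte sums separated only in the fasted state, lower in HRD1Alb, and overlapped after refeeding. Macrophage markers, 8 genes, summed to between 80.3 and 92.9 CPM in the 4 WT samples and to between 191 and 406 CPM in the 4 samples labelled HRD1Alb. Of these 8, 2 rose in the fasted and 7 in the refed genotype comparison. Over all genes 1.35% were called fasted (0.921% upward) and 11.9% refed (7.09% upward). An unadjusted p under 0.05 was seen for 18.4% and 33.3% of all genes. These shares stand beside every marker count in this paragraph. The macrophage counts changed with the library left out, as did the share of all genes called, and in some such fits no macrophage marker was called. The 7 stellate or fibroblast markers summed to 161 to 342 CPM in WT and to 329.5 to 442 CPM in libraries labelled HRD1Alb. Of these 7, 0 rose fasted and 2 refed, and 2 and 5 had an unadjusted p under 0.05. The differences of all 7 were positive in both comparisons. The 9 endothelial markers summed to 123 to 151 CPM in WT and to 136 to 178 CPM in libraries labelled HRD1Alb. Of these 9, 0 rose fasted and 1 refed, and 0 and 1 had an unadjusted p under 0.05. Markers of hepatocytes, 5 genes, summed to 97180 to 133720 CPM in WT and to 57994 to 97457 CPM in libraries labelled HRD1Alb, with none called in either comparison by edgeR, limma-trend or DESeq2, and 2 and 1 of 5 at an unadjusted p under 0.05. The 6 cholangiocyte markers summed to 32.2 to 68.6 CPM in WT and 29.1 to 53.2 CPM in libraries labelled HRD1Alb, with 0 called by edgeR, DESeq2 or limma-trend and 2 and 1 at an unadjusted p under 0.05. Their genotype differences were negative for all 6 fasted (median -0.97) and positive for all 6 refed (median 0.59). The 4 lymphocyte markers summed to 1.26 to 1.83 CPM and 2.09 to 3.51 CPM, with 0 and 1 risen. Of all these markers only Cftr was at 0, in WT refed replicate 1 and in replicate 2 of the refed libraries labelled HRD1Alb. The part of these cell type markers in the results below was not tested.

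None of the 9 genes was called in any comparison. Their fasted genotype differences ran from -0.20 (Oat) to 0.45 (Axin2) on the log2 scale and their refed genotype differences from -0.67 (Slc1a2) to 0.78 (Rhbg). Refeeding differences ran from -0.42 (Axin2) to 1.11 (Rnf43) in WT and from -0.73 (Slc1a2) to 0.74 (Rhbg) in the libraries labelled HRD1Alb. In bulk RNA, fewer cells of a type and less RNA per cell cannot be told apart, so none of these values says whether single pericentral hepatocytes differed.

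**Figure D1:**
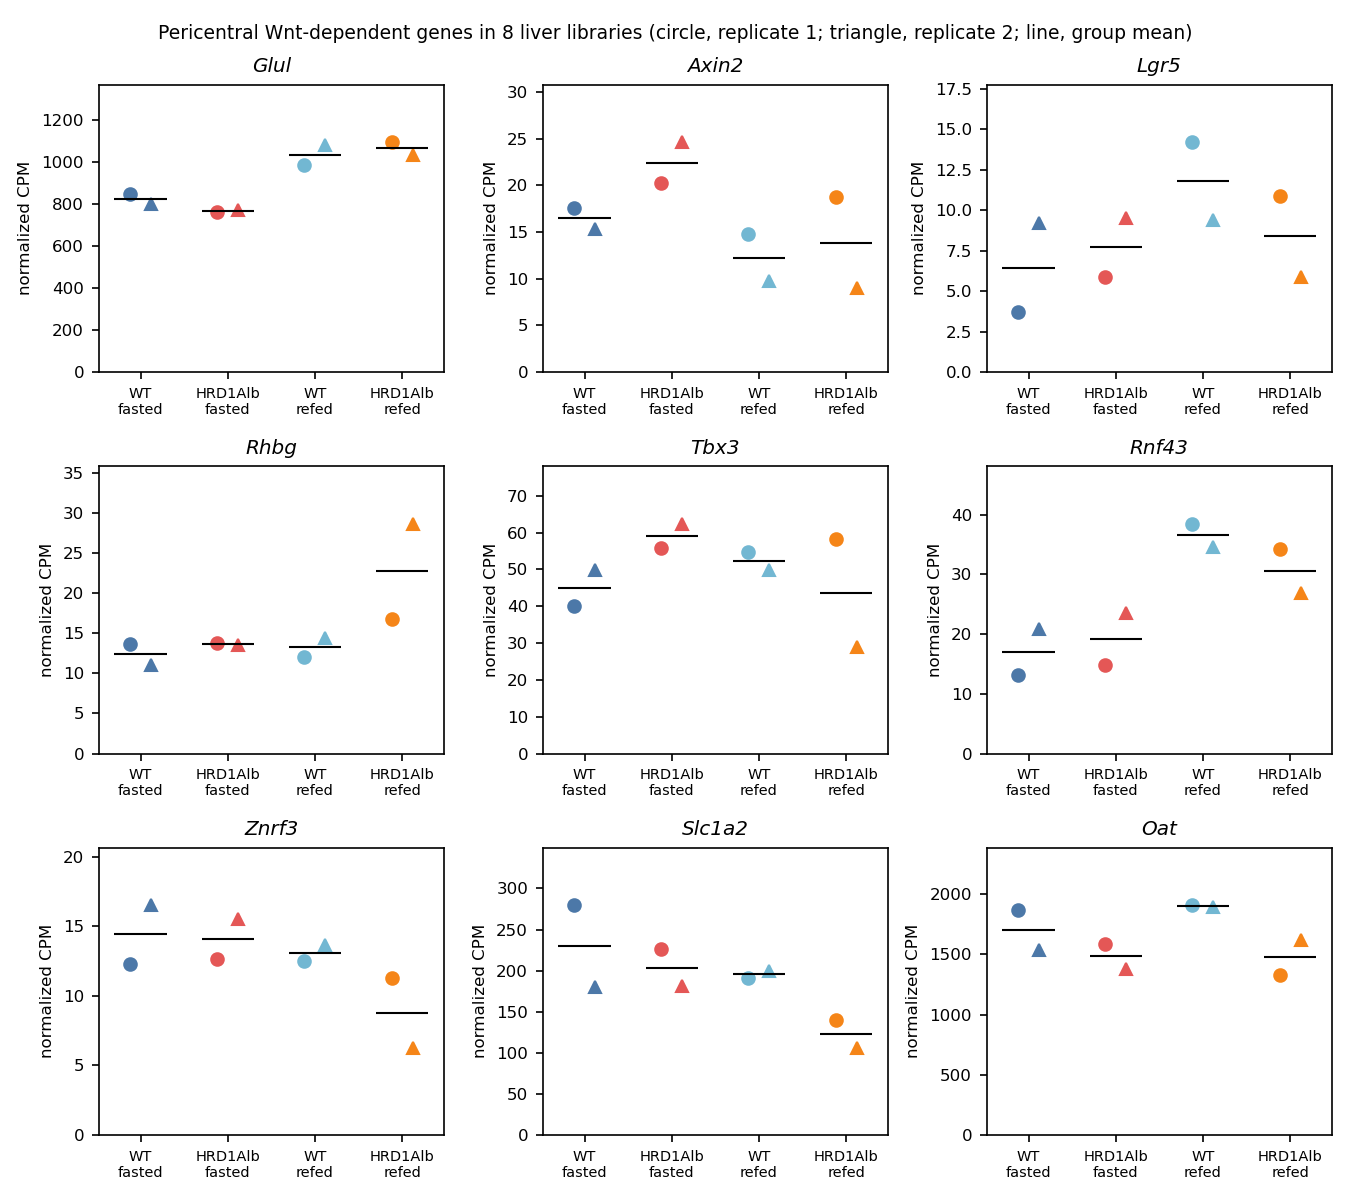
Normalised level of each of the 9 genes in every sample, in CPM on linear axes that start at 0, by group, with a circle for replicate 1, a triangle for replicate 2 and a line at the mean. Glul separates the feeding states, from 764 to 849 CPM fasted and from 989 to 1097 CPM refed, whereas Slc1a2 is lowest in the refed libraries labelled HRD1Alb and Rhbg highest there.

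Per kilobase of exon, the 9 genes covered a wide range of levels, and the order is given for fasted WT liver. Oat was the most abundant at 722 ± 99.4 CPM per kb (SD, n = 2), followed by Glul at 248 ± 9.83 and Slc1a2 at 17.5 ± 5.36 CPM per kb. Tbx3 at 6.80 ± 1.04 and Rhbg at 6.38 ± 0.956 CPM per kb came next and overlapped each other. Axin2 at 2.99 ± 0.289, Rnf43 at 2.59 ± 0.831 and Znrf3 at 1.83 ± 0.379 CPM per kb followed, and Rnf43 overlapped both of its neighbours. Lgr5 was the lowest at 0.629 ± 0.381 CPM per kb. The enzymes and the transporter thus stood above the receptor and feedback genes on this scale.

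Glul encodes glutamine synthetase, the enzyme that joins ammonia to glutamate in the last rows of hepatocytes around the central vein (GRCm38 chr1:153899944-153909723, plus strand). Its level was 849 and 803 CPM in fasted WT, 764 and 773 CPM in fasted HRD1Alb, 989 and 1079.9 CPM in refed WT, and 1097 and 1036 CPM in the refed libraries labelled HRD1Alb. Every refed sample lay above every fasted sample, the fasted groups did not overlap, and the refed groups did. The fasted genotype difference was -0.10 (SE 0.15, 95% interval -0.46 to 0.25) and the refed one 0.04 (SE 0.15, 95% interval -0.31 to 0.40), with edgeR adjusted p of 0.782 and 0.851. Both intervals lay between -0.46 and 0.40. Without replicate 1 and 2 of the refed libraries labelled HRD1Alb the refed value was -0.0043 and 0.08. Refeeding differences were 0.33 (SE 0.15, edgeR adjusted p = 0.357) in WT and 0.47 (SE 0.15, edgeR adjusted p = 0.0883) in libraries labelled HRD1Alb. The latter was 0.43 without replicate 1 and 0.51 without replicate 2 of the refed libraries labelled HRD1Alb.

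Slc1a2 encodes the glutamate transporter GLT-1, which in liver brings glutamate into pericentral hepatocytes, and is the gene with the promoter window printed above. It was at 280 and 180 CPM in fasted WT, 226 and 181 CPM in fasted HRD1Alb, 191 and 199.9 CPM in refed WT, and 140 and 106 CPM in the refed libraries labelled HRD1Alb. Both refed libraries labelled HRD1Alb were the lowest of all 8, and the other 3 groups overlapped. The refed genotype difference was -0.67 (SE 0.25, 95% interval -1.27 to -0.08, edgeR adjusted p = 0.115). It was -0.90 (edgeR adjusted p = 0.0239) without replicate 1 of those libraries and -0.49 (edgeR adjusted p = 0.204) without replicate 2, and -0.27 after a correction of every sample for exon length. Between fasted genotypes Slc1a2 differed by -0.18 (SE 0.25, edgeR adjusted p = 0.779). Refeeding gave -0.24 (SE 0.25, edgeR adjusted p = 0.748) in WT and -0.73 (SE 0.25, edgeR adjusted p = 0.104) in libraries labelled HRD1Alb, the latter -0.95 (edgeR adjusted p = 0.0190) without replicate 1, -0.54 (edgeR adjusted p = 0.183) without replicate 2 and -0.26 after length correction. At 13133 bases Slc1a2 has the longest union of annotated exons among the 9 genes.

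Rhbg encodes an ammonia channel of the Rhesus family in the membrane of pericentral hepatocytes (GRCm38 chr3:88242874-88254709, minus strand). It was at 13.7 and 11.0 CPM in fasted WT, 13.8 and 13.5 CPM in fasted HRD1Alb, 12.1 and 14.4 CPM in refed WT, and 16.8 and 28.7 CPM in the refed libraries labelled HRD1Alb. The first 3 groups overlapped, and the last lay above all of them, with its replicates 1.71-fold apart. The refed genotype difference was 0.78 (SE 0.27, 95% interval 0.14 to 1.42, edgeR adjusted p = 0.0968). The value was 1.11 (edgeR adjusted p = 0.00122) without replicate 1 of those libraries, 0.34 (edgeR adjusted p = 0.186) without replicate 2 and 0.40 after length correction. Rhbg has the shortest union of annotated exons among the 9, at 1937 bases. Its refeeding difference in libraries labelled HRD1Alb was 0.74 (SE 0.27, edgeR adjusted p = 0.118), and 1.07 (edgeR adjusted p = 0.00131) and 0.30 (edgeR adjusted p = 0.258) without replicate 1 and 2. Between fasted genotypes Rhbg differed by 0.14 (SE 0.27, edgeR adjusted p = 0.841) and with WT refeeding by 0.10 (SE 0.27, edgeR adjusted p = 0.920).

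Oat encodes ornithine aminotransferase, a mitochondrial enzyme that links ornithine to glutamate and is concentrated in the same pericentral cells as glutamine synthetase (GRCm38 chr7:132557478-132576398, minus strand). Its level was 1871 and 1539 CPM in fasted WT, 1586 and 1379 CPM in fasted HRD1Alb, 1909 and 1892 CPM in refed WT, and 1328 and 1621 CPM in the refed libraries labelled HRD1Alb. The refed groups did not overlap and the fasted ones did. The refed genotype difference was -0.37 (SE 0.19, 95% interval -0.81 to 0.08, edgeR adjusted p = 0.215), and -0.63 (edgeR adjusted p = 0.0376) after length correction, the only setting with both refed libraries kept, beside that correction with a replicate block, that called it. It was -0.24 (edgeR adjusted p = 0.282) and -0.52 (edgeR adjusted p = 0.0687) without replicate 1 and 2 of the refed libraries labelled HRD1Alb. Fasted genotypes differed in Oat by -0.20 (SE 0.19, edgeR adjusted p = 0.639), and refeeding differences were 0.16 (SE 0.19) in WT and -0.01 (SE 0.19) in libraries labelled HRD1Alb, the latter 0.13 and -0.16 without replicate 1 and 2.

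Among the feedback genes, Axin2 is the most general transcriptional target of the pathway and encodes a scaffold of the complex that degrades β-catenin (GRCm38 chr11:108920349-108950783, plus strand). It was at 17.6 and 15.4 CPM in fasted WT, 20.3 and 24.7 CPM in fasted HRD1Alb, 14.8 and 9.74 CPM in refed WT, and 18.7 and 9.01 CPM in the refed libraries labelled HRD1Alb. Both fasted HRD1Alb samples were the highest of the 8, and the refed groups overlapped. The fasted genotype difference was 0.45 (SE 0.36, 95% interval -0.39 to 1.28, edgeR adjusted p = 0.568) and the refed one 0.18 (SE 0.36, edgeR adjusted p = 0.740). The refed value turned from -0.45 (edgeR adjusted p = 0.176) without replicate 1 of the libraries labelled HRD1Alb to 0.60 (edgeR adjusted p = 0.111) without replicate 2. Refeeding differences were -0.42 (SE 0.36, edgeR adjusted p = 0.653) in WT and -0.69 (SE 0.36, edgeR adjusted p = 0.222) in libraries labelled HRD1Alb, the latter -1.32 (edgeR adjusted p = 0.00466) without replicate 1 and -0.26 (edgeR adjusted p = 0.495) without replicate 2.

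Rnf43 and Znrf3 encode paired membrane ubiquitin ligases that clear Frizzled receptors. Rnf43 (GRCm38 chr11:87662722-87735539, plus strand) was at 13.1 and 20.8 CPM in fasted WT, 14.8 and 23.5 CPM in fasted HRD1Alb, 38.5 and 34.7 CPM in refed WT, and 34.3 and 26.9 CPM in the refed libraries labelled HRD1Alb. All 4 refed samples lay above all 4 fasted samples. The WT refeeding difference of Rnf43 was 1.11 (SE 0.30, 95% interval 0.40 to 1.81, a 2.16-fold level, edgeR adjusted p = 0.119). It passed the threshold with DESeq2 (adjusted p = 0.0148), as did 7.89% of all genes with an adjusted p from it. With the 4 WT samples alone it also passed (edgeR adjusted p = 0.0296), as did 14% of all genes, against 2.61% in the fit of all 8. Its value was 1.11 without either refed library labelled HRD1Alb, neither of which enters this comparison. In libraries labelled HRD1Alb the difference was 0.67 (SE 0.30, edgeR adjusted p = 0.169), with 0.48 and 0.84 without replicate 1 and 2. Genotype differences were 0.18 (SE 0.30, edgeR adjusted p = 0.816) fasted and -0.26 (SE 0.30, edgeR adjusted p = 0.549) refed, the latter -0.45 and -0.10 without replicate 1 and 2.

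Znrf3 (GRCm38 chr11:5276324-5444847, minus strand) was at 12.3 and 16.5 CPM in fasted WT, 12.7 and 15.5 CPM in fasted HRD1Alb, 12.5 and 13.7 CPM in refed WT, and 11.3 and 6.25 CPM in the refed libraries labelled HRD1Alb. The first 3 groups overlapped, and the last lay below them with its replicates 1.81-fold apart. The refed genotype difference of Znrf3 was -0.57 (SE 0.30, 95% interval -1.28 to 0.13, edgeR adjusted p = 0.219), and -1.07 (edgeR adjusted p = 0.00616) or -0.22 (edgeR adjusted p = 0.482) without replicate 1 or 2 of those libraries. Its refeeding difference in libraries labelled HRD1Alb was -0.68 (SE 0.30, edgeR adjusted p = 0.170), and -1.18 (edgeR adjusted p = 0.00394) or -0.32 (edgeR adjusted p = 0.327) without replicate 1 or 2. The fasted genotype difference was -0.03 (SE 0.30) and the WT refeeding difference -0.14 (SE 0.30).

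Lgr5 encodes an R-spondin receptor that marks the most pericentral hepatocytes (GRCm38 chr10:115450311-115587780, minus strand). It was at 3.69 and 9.22 CPM in fasted WT, 5.87 and 9.55 CPM in fasted HRD1Alb, 14.2 and 9.43 CPM in refed WT, and 10.9 and 5.87 CPM in the refed libraries labelled HRD1Alb. Replicates differed 1.51-fold to 2.50-fold within groups, the widest spread among the 9 genes in fasted WT, and genotypes overlapped in both feeding states. Genotype differences were 0.26 (SE 0.50, 95% interval -0.92 to 1.43) fasted and -0.49 (SE 0.50, 95% interval -1.66 to 0.67) refed, with edgeR adjusted p of 0.844 and 0.494, and both intervals reach past a 2-fold difference in 1 direction or both. Refeeding differences were 0.87 (SE 0.50, edgeR adjusted p = 0.469) in WT and 0.12 (SE 0.50, edgeR adjusted p = 0.883) in libraries labelled HRD1Alb. The refed genotype value was -1.02 and -0.12 without replicate 1 and 2 of the libraries labelled HRD1Alb, and the HRD1Alb refeeding value turned from -0.40 to 0.50.

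Tbx3 encodes a T-box transcription factor, a β-catenin target in the liver (GRCm38 chr5:119670669-119684724, plus strand). It was at 40.2 and 49.9 CPM in fasted WT, 55.8 and 62.5 CPM in fasted HRD1Alb, 54.6 and 49.9 CPM in refed WT, and 58.3 and 28.9 CPM in the refed libraries labelled HRD1Alb. The fasted groups did not overlap, and the 2 refed libraries labelled HRD1Alb lay on either side of refed WT. The fasted genotype difference was 0.39 (SE 0.31, 95% interval -0.33 to 1.12, edgeR adjusted p = 0.562) and the refed one -0.26 (SE 0.31, edgeR adjusted p = 0.566). The refed value was -0.86 (edgeR adjusted p = 0.00358) without replicate 1 of those libraries and 0.15 (edgeR adjusted p = 0.490) without replicate 2. Refeeding differences were 0.22 (SE 0.31, edgeR adjusted p = 0.823) in WT and -0.44 (SE 0.31, edgeR adjusted p = 0.355) in libraries labelled HRD1Alb, the latter -1.03 (edgeR adjusted p = 0.00152) and -0.02 (edgeR adjusted p = 0.944) without replicate 1 and 2.

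**Figure D2:**
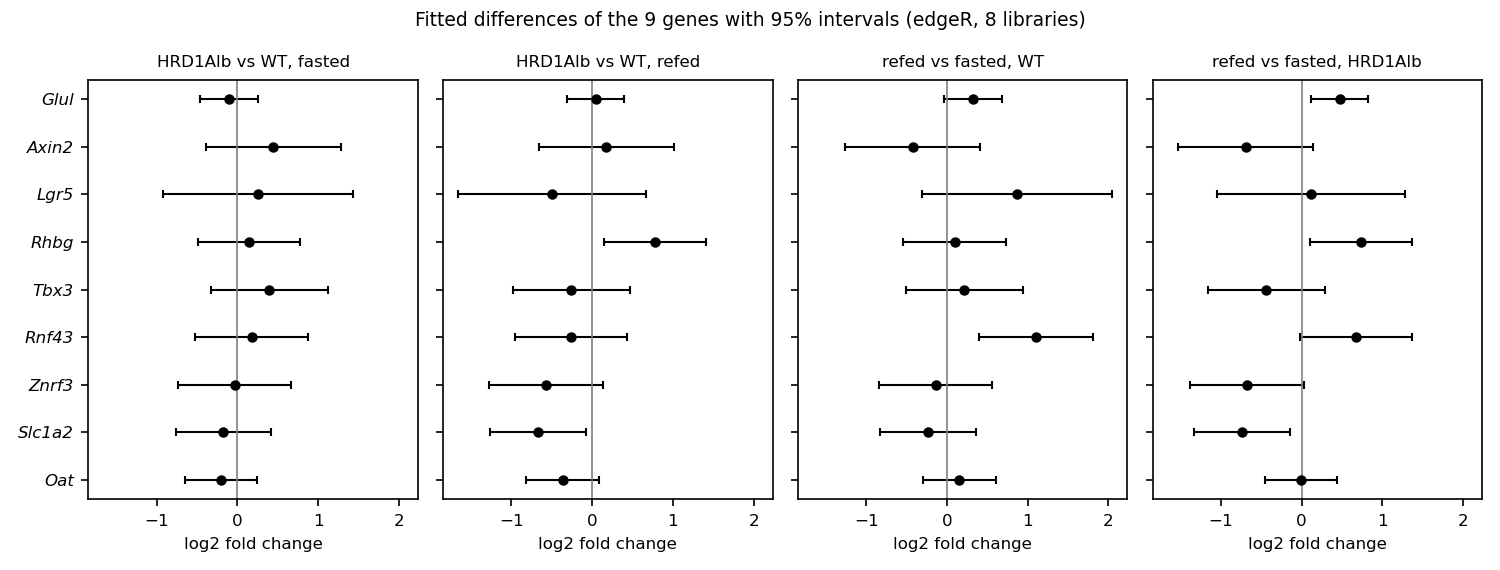
Log2 difference of each of the 9 genes in the fasted and refed genotype comparisons and in both refeeding comparisons, with 95% intervals from edgeR's quasi-likelihood fit and a line at 0. Intervals clear of 0 are those of Rhbg and Slc1a2 in the refed genotype comparison, Rnf43 in WT refeeding, and Glul, Rhbg and Slc1a2 in HRD1Alb refeeding, none of which passed the adjusted threshold.

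Set against all genes, the fasted genotype comparison called 0 of the 9 genes with edgeR, where 1.35% of the 14328 genes were called (0.921% upward and 0.433% downward). At an unadjusted p under 0.05 it gave 0 of 9 against 18.4% of all genes, and DESeq2 and limma-trend also called 0 of 9. Groups that did not overlap were seen for 3 of 9, with Axin2 and Tbx3 higher and Glul lower in HRD1Alb, against 64.9% of all genes. The median of the 9 was 0.14 and that of all genes -0.02. The refed genotype comparison called 0 of 9, where 11.9% of all genes were called (7.09% upward and 4.84% downward). Unadjusted p was under 0.05 for Rhbg and Slc1a2, 2 of 9 against 33.3% of all genes, and DESeq2 and limma-trend called 0 of 9. Without replicate 1 of the refed libraries labelled HRD1Alb the edgeR count was 4 (Rhbg upward, Slc1a2, Tbx3 and Znrf3 downward), where 52.8% of 14590 genes were called, and without replicate 2 it was 0, where 23.7% were. Groups did not overlap for 5 of 9, with Rhbg higher and Oat, Rnf43, Slc1a2 and Znrf3 lower in the libraries labelled HRD1Alb, against 60.8% of all genes. The median of the 9 was -0.26 and that of all genes 0.04. With only 9 genes, 0 called lies near the 1.35% and 11.9% of all genes. These counts therefore cannot show whether the group differed from genes at large in either comparison of genotypes.

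Refeeding in WT called 0 of 9 with edgeR, where 2.61% of all genes were called (1.2% upward and 1.41% downward). Only Rnf43 had an unadjusted p under 0.05, 1 of 9 against 16.3% of all genes, and it was also the 1 gene called by DESeq2, beside 7.89% of all genes with an adjusted p from it, while limma-trend called 0. Groups did not overlap for 6 of 9, against 60.4% of all genes, with Glul, Lgr5, Oat, Rnf43 and Tbx3 higher and Axin2 lower after refeeding. In libraries labelled HRD1Alb refeeding called 0 of 9 with edgeR, where 10.5% of all genes were called (5.43% upward and 5.05% downward). Unadjusted p was under 0.05 for Glul, Rhbg and Slc1a2, 3 of 9 against 31.7% of all genes. DESeq2 called Glul upward and Slc1a2 downward, beside 20.8% of all genes with an adjusted p from it, and limma-trend called 0. Without replicate 1 of the refed libraries labelled HRD1Alb edgeR called 6 of 9 (Glul and Rhbg upward, Axin2, Slc1a2, Tbx3 and Znrf3 downward), where 51.4% of all genes were called, and without replicate 2 it called Glul alone, where 19.7% were. Groups did not overlap for 6 of 9, against 58.7% of all genes, with Glul, Rhbg and Rnf43 higher and Axin2, Slc1a2 and Znrf3 lower after refeeding. The medians of the 9 were 0.16 in WT and -0.01 in libraries labelled HRD1Alb, beside 0.00 and 0.02 over all genes. Both refeeding comparisons share their fasted or refed samples with the comparisons of genotypes, so the values are not independent of those above.

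Whether the genotype difference changed with feeding was tested as an interaction. It called 0 of 9 and 0% of all genes with edgeR, with 0 of 9 at an unadjusted p under 0.05 against 8.44% of all genes, and DESeq2 and limma-trend called 0 of 9. Adjusted p of the 9 ran from 0.624 (Rhbg, 0.64, SE 0.38) to 0.842 (Axin2, -0.27, SE 0.51), and Lgr5 had the largest value at -0.75 (SE 0.71). Without replicate 1 of the refed libraries labelled HRD1Alb, 3 of 9 were called by edgeR (Rhbg 0.97, Tbx3 -1.25 and Znrf3 -1.04), where 33.4% of 14590 genes were, and without replicate 2 it was 0 of 9, where 0.69% of all genes were. The difference of effect between feeding states thus rested on which refed library labelled HRD1Alb was kept. Permuting the labels of 2 against 2 samples could not give an exact two-sided p below 0.333, so no such test was run on single genes.

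The refed libraries labelled HRD1Alb disagreed with each other along exon length among the 9 genes as among all genes. The log2 level in replicate 2 over replicate 1 was 0.77 for Rhbg (1937 exon bases), 0.29 for Oat (2360) and -0.08 for Glul (3323). It was -1.06 for Axin2 (5506), -0.35 for Rnf43 (6558), -1.01 for Tbx3 (6624) and -0.85 for Znrf3 (7893). For the longest, it was -0.89 for Lgr5 (10264) and -0.40 for Slc1a2 (13133). Both genes with shorter exons than Glul were higher in replicate 2, and all 6 with longer exons were lower. In the other groups the values ran from -0.63 to 1.32 in fasted WT, from -0.32 to 0.70 in fasted HRD1Alb and from -0.60 to 0.25 in refed WT.

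**Figure D3:**
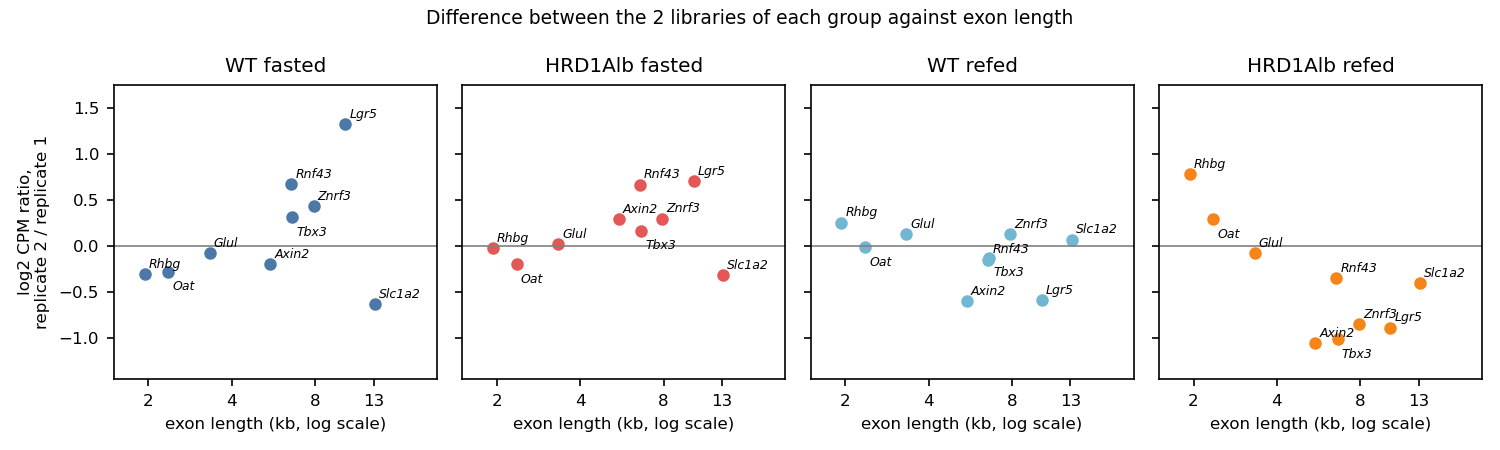
Log2 level in replicate 2 over replicate 1 against exon length in kilobases on a logarithmic axis, for the 9 genes in each of the 4 groups. In the refed libraries labelled HRD1Alb the points pass from 0.77 for Rhbg to between -1.06 and -0.08 for Glul and the 6 genes with longer exons.

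Elsewhere in the Wnt pathway, the calls among receptor genes between refed genotypes were Lgr4 and Fzd4, both downward. These were 2 of 13 tested receptor genes, beside 11.9% of all genes called (4.84% downward), and the median of the 13 was -0.45 beside 0.04 over all genes. Lgr4, the R-spondin receptor that most hepatocytes carry, was at 81.5 and 81.3 CPM in fasted WT, 53.8 and 49.997 CPM in fasted HRD1Alb, 65.2 and 69.9 CPM in refed WT, and 27.6 and 22.6 CPM in the refed libraries labelled HRD1Alb. Every sample labelled HRD1Alb thus lay below every WT sample. Lgr4 fell by 1.43 (SE 0.16, edgeR adjusted p = 0.00820) in the refed comparison and was at -0.65 (SE 0.16, edgeR adjusted p = 0.0960) in the fasted one. Its refed value was -1.58 and -1.30 without replicate 1 and 2, and -1.34 after length correction. Fzd4, a Frizzled receptor, fell by 0.83 (SE 0.20, edgeR adjusted p = 0.0401), with -1.09 and -0.62 without replicate 1 and 2. The Wnt co-receptors were at -0.77 for Lrp5 (SE 0.30, edgeR adjusted p = 0.122) and -0.65 for Lrp6 (SE 0.32, edgeR adjusted p = 0.191). Without replicate 1 of the refed libraries labelled HRD1Alb Lrp5 was at -1.34 and Lrp6 at -1.31, and without replicate 2 they were at -0.38 and -0.21. After length correction Lrp5 was at -0.54 (edgeR adjusted p = 0.0794) and Lrp6 at -0.32 (edgeR adjusted p = 0.182). Without replicate 1 of the refed libraries labelled HRD1Alb 9 receptor genes fell, where 52.8% of all genes were called, and without replicate 2 it was 3, where 23.7% were. All 29 calls in the refed genotype comparison among listed genes that the naming rule covers, markers included, were lost when either refed WT library was left out or when only those 4 samples were fitted, settings in which edgeR called 0 to 0.0136% of all genes. All 29 held with DESeq2, 10 without either fasted HRD1Alb library, and 18 or 17 without fasted WT replicate 1 or 2.

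Receptor calls on refeeding were downward too. In libraries labelled HRD1Alb, 3 of 13 receptor genes fell and 0 rose, beside 10.5% of all genes called, with a median of -0.76. It was 10 of 13 without replicate 1 of the refed libraries, beside 51.4% of all genes, and 5 without replicate 2, beside 19.7%. These were Lgr4 (-1.05, SE 0.16), Fzd4 (-0.93, SE 0.20) and Kremen1, a receptor for Dickkopf inhibitors (-0.90, SE 0.21), with edgeR adjusted p of 0.0128, 0.0299 and 0.0400. In WT, 1 of 13 fell, Ryk, an alternative Wnt receptor (-0.77, SE 0.15, edgeR adjusted p = 0.0472), beside 2.61% of all genes, with a median of -0.44 (5 fell without either refed library labelled HRD1Alb, beside 17.2% and 17% of all genes, and 0 without any other single library). Of the 20 calls on refeeding in libraries labelled HRD1Alb that the same rule covers, 1 held without either fasted HRD1Alb library, 7 without any single WT library and 0 with only the samples compared. In the fasted genotype comparison 0 of 13 were called by edgeR, beside 1.35% of all genes, and 0 by limma-trend. DESeq2 called 1, downward, beside 7.64% of all genes, and 2 had an unadjusted p under 0.05, beside 18.4%.

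Ligands and other regulators of the pathway gave few calls. Of 9 genes for ligands, R-spondins and ligand secretion, 0 were called by edgeR in any comparison, with 0, 3, 1 and 1 at an unadjusted p under 0.05 in the fasted genotype, refed genotype, WT refeeding and HRD1Alb refeeding comparisons. Over all genes the shares at an unadjusted p under 0.05 were 18.4%, 33.3%, 16.3% and 31.7%. DESeq2 called 1 upward in each of the refed genotype and HRD1Alb refeeding comparisons, beside 22.2% and 20.8% of all genes with an adjusted p from it, and limma-trend 0. Rspo3, the R-spondin of central vein endothelium, was at 5.86 and 9.37 CPM in fasted WT, 8.15 and 10.5 CPM in fasted HRD1Alb, 6.22 and 6.43 CPM in refed WT, and 10.3 and 10.6 CPM in the refed libraries labelled HRD1Alb. The refed groups did not overlap, with a difference of 0.72 (SE 0.26, edgeR adjusted p = 0.103). Wnt2 and Wnt9b, the ligands of that endothelium, differed by 0.74 (SE 0.42, edgeR adjusted p = 0.251) and 0.04 (SE 0.38, edgeR adjusted p = 0.943) between refed genotypes, with Wnt2 at 1.06 and 0.31 and neither value called without replicate 1 and 2 of the libraries labelled HRD1Alb. Ctnnb1, which encodes β-catenin itself, ran from 163 to 229 CPM over the 8 samples and differed by -0.15 (SE 0.19) fasted and -0.19 (SE 0.19) refed, with edgeR adjusted p of 0.730 and 0.480. Its refed value was -0.46 (edgeR adjusted p = 0.0107) without replicate 1 of the libraries labelled HRD1Alb and 0.02 without replicate 2.

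Of 11 tested genes for intracellular components 0 were called by edgeR or limma-trend in any comparison. At an unadjusted p under 0.05 there were 1, 1, 3 and 3 in the same order, beside 18.4%, 33.3%, 16.3% and 31.7% of all genes. DESeq2 called 1 downward in each refeeding comparison, beside 7.89% (WT) and 20.8% (HRD1Alb) of all genes with an adjusted p from it. The edgeR calls in the refed genotype comparison changed with the library labelled HRD1Alb that was left out. Of 7 nuclear factors 1 fell in the refed genotype comparison, where 11.9% of all genes were called (4.84% downward). It was Tcf7l1, at -0.84 (SE 0.22, edgeR adjusted p = 0.0490), with -0.95 and -0.75 without replicate 1 and 2 of the libraries labelled HRD1Alb. Tcf7l2, the main TCF factor of hepatocytes, was at -0.50 (SE 0.21, edgeR adjusted p = 0.143), and at -0.19 (edgeR adjusted p = 0.619) after length correction. Of 4 tested secreted inhibitors 1 rose in that comparison, where 7.09% of all genes were called upward. It was Dkk3, at 1.69 (SE 0.44, edgeR adjusted p = 0.0497), from 1.28 and 1.16 CPM in refed WT to 4.98 and 2.89 CPM. The Dkk3 call was lost without replicate 1 of the libraries labelled HRD1Alb (edgeR adjusted p = 0.0510) and held without replicate 2 (0.0173).

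Of 3 tested general targets of β-catenin outside the group of 9, 2 rose in the refed genotype comparison, where 11.9% of all genes were called (7.09% upward). Both of them are cell cycle genes under many other controls. Ccnd1, encoding cyclin D1, was at 24.4 and 29.0 CPM in fasted WT, 56.6 and 62.0 CPM in fasted HRD1Alb, 45.1 and 24.1 CPM in refed WT, and 172 and 205 CPM in the refed libraries labelled HRD1Alb. It rose by 2.44 (SE 0.30, edgeR adjusted p = 0.00991), with 2.56 and 2.31 without replicate 1 and 2. Myc, encoding a growth transcription factor, rose by 1.77 (SE 0.41, edgeR adjusted p = 0.0379), from 8.64 and 5.93 CPM in refed WT to 32.1 and 17.7 CPM. Its value was 1.27 and 2.13 without replicate 1 and 2 of the libraries labelled HRD1Alb. Ccnd1 also rose on refeeding in libraries labelled HRD1Alb, by 1.67 (SE 0.29, edgeR adjusted p = 0.0180). The third tested target, Sp5, a transcription factor gene named after its values were seen, was at 3.09 and 2.21 CPM in refed WT and 4.35 and 6.05 CPM in the refed libraries labelled HRD1Alb, a difference of 0.97 (SE 0.30, edgeR adjusted p = 0.0726). Macrophage marker sums, which also differed between genotypes, were 90.2 and 91.4 CPM in refed WT and 191 and 406 CPM in the refed libraries labelled HRD1Alb, and their part in these values was not tested.

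**Figure D4:**
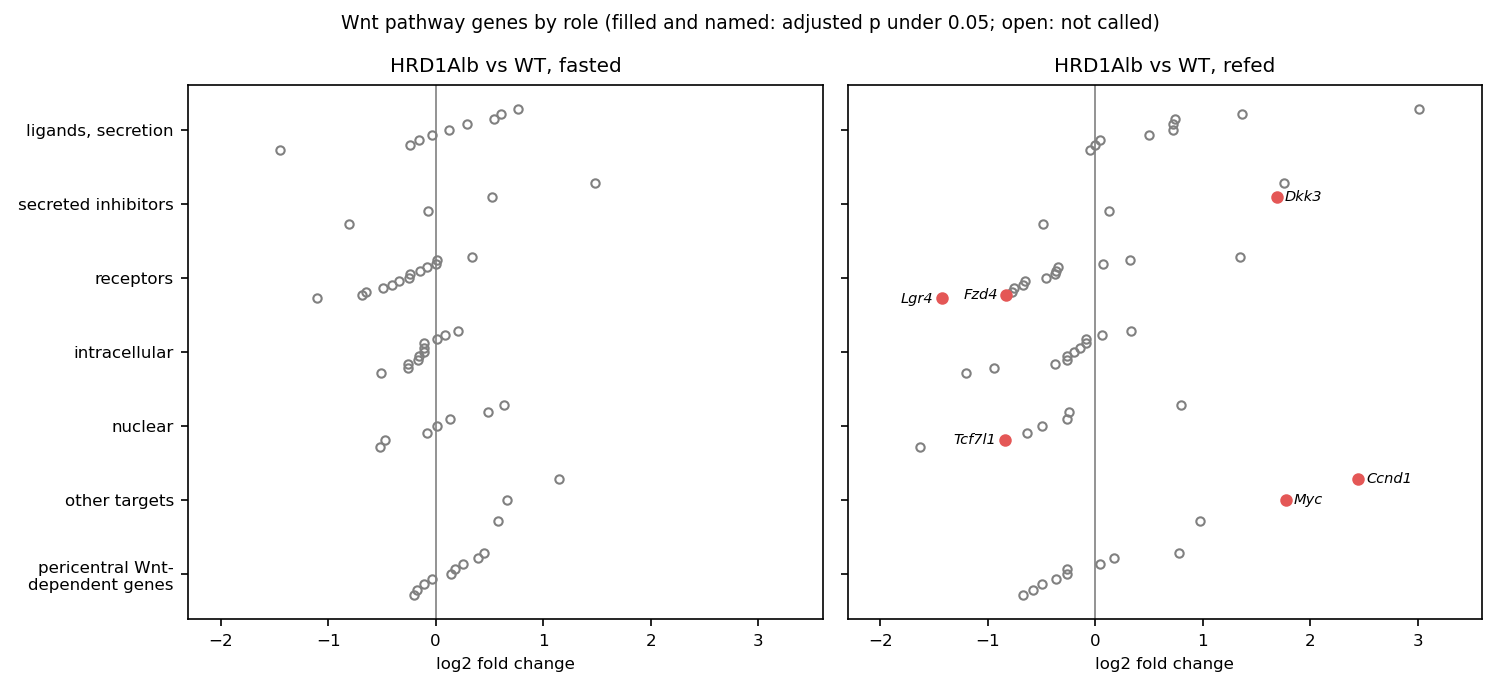
Log2 difference between genotypes, fasted and refed, of every tested gene of the Wnt pathway by role, with the 9 genes beside ligands, secreted inhibitors, receptors, intracellular and nuclear components and other targets, filled where the edgeR adjusted p was under 0.05. In the refed comparison the filled points are Lgr4, Fzd4 and Tcf7l1 below 0 and Dkk3, Ccnd1 and Myc above 0, and none of the 9 genes is filled.

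Other pericentral genes were called in both directions. Of 19 genes, 2 rose and 2 fell in the fasted genotype comparison, beside 1.35% of all genes called. It was 0 and 0 without any single WT library or either fasted HRD1Alb library, and 4 and 6 without either refed library labelled HRD1Alb, where 21.7% and 21.3% of all genes were called. Gstm3, a glutathione transferase, rose by 2.44 (SE 0.44, edgeR adjusted p = 0.04996) and the transporter gene Slc13a3 by 1.01 (SE 0.18, edgeR adjusted p = 0.0494). Cyp7a1, the rate-limiting enzyme of bile acid synthesis, fell by 1.71 (SE 0.22, edgeR adjusted p = 0.0266) and Cyp27a1, also of bile acid synthesis, fell by 0.94 (SE 0.15, edgeR adjusted p = 0.0428). In the refed comparison 3 rose and 4 fell, beside 11.9% of all genes called, with a median of -0.37. It was 4 and 7 without replicate 1 of the libraries labelled HRD1Alb, beside 52.8% of all genes, and 3 and 7 without replicate 2, beside 23.7%. Gstm3 (2.92, SE 0.44), the organic cation transporter gene Slc22a3 (2.79, SE 0.45) and Slc13a3 (0.99, SE 0.18) rose, with edgeR adjusted p of 0.0138, 0.0159 and 0.0210. Cyp8b1, which makes cholic acid, fell by 2.11 (SE 0.38, edgeR adjusted p = 0.0210), and the drug-metabolising Cyp2c29, Cyp2c54 and Cyp2c37 fell by 1.68, 1.20 and 1.03, with edgeR adjusted p of 0.0105, 0.0383 and 0.0393. The best known pericentral cytochromes were not called before length correction, with Cyp2e1 at -0.37 (SE 0.19, edgeR adjusted p = 0.196) and Cyp1a2 at -0.09 (SE 0.21, edgeR adjusted p = 0.783). Cyp1a2 was at -0.32 and 0.10 without replicate 1 and 2 of the libraries labelled HRD1Alb. After length correction Cyp2e1 was at -0.66 (edgeR adjusted p = 0.0499), where 16.9% of all genes were called, and Cyp1a2 at -0.36 (edgeR adjusted p = 0.385). Cyp2e1 fell on refeeding in libraries labelled HRD1Alb by 0.78 (SE 0.19, edgeR adjusted p = 0.0425) beside a WT value of -0.70 (SE 0.19, edgeR adjusted p = 0.115).

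Genes of the opposite, periportal zone were called downward in the fit of all samples. Of 19 periportal genes 5 fell and 0 rose in the refed genotype comparison, beside 11.9% of all genes called (4.84% downward), with a median of -0.75. In the fasted one 0 were called by edgeR, beside 1.35% of all genes, and 0 by limma-trend. DESeq2 called 4 there, downward, beside 7.64% of all genes, and 10 had an unadjusted p under 0.05, beside 18.4%. Cyp2f2, a cytochrome used as a periportal marker, was at 1123 and 860 CPM in fasted WT, 350.0 and 470 CPM in fasted HRD1Alb, 1427 and 1065 CPM in refed WT, and 287 and 480 CPM in the refed libraries labelled HRD1Alb. It fell by 1.70 (SE 0.31, edgeR adjusted p = 0.0220) in the refed comparison and was at -1.27 (SE 0.31, edgeR adjusted p = 0.0933) in the fasted one. Otc, of the urea cycle, fell by 0.92, Cdh1, encoding E-cadherin, by 1.04 and Pigr, a receptor for polymeric immunoglobulin, by 0.89, with edgeR adjusted p of 0.0280, 0.0391 and 0.0283. Without replicate 1 of the refed libraries labelled HRD1Alb 7 periportal genes fell and 3 rose, beside 52.8% of all genes called, and without replicate 2 it was 14 and 0, beside 23.7%. On refeeding Pck1 and G6pc, both of glucose production, were the only periportal genes called, at -3.04 (SE 0.21) and -3.14 (SE 0.43) in WT and -3.40 (SE 0.21) and -2.95 (SE 0.42) in libraries labelled HRD1Alb. In WT both calls were lost without either refed WT library.

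In the handling of glutamine, ammonia and ornithine around Glul, Rhbg, Slc1a2 and Oat, 2 of 17 genes rose and 2 fell in the refed genotype comparison, beside 11.9% of all genes called. It was 5 and 4 without replicate 1 of the libraries labelled HRD1Alb, beside 52.8% of all genes, and 3 and 3 without replicate 2, beside 23.7%. Aldh18a1, which makes the precursor that joins glutamate to proline and ornithine, was at 0.673 and 0.949 CPM in fasted WT, 4.48 and 5.41 CPM in fasted HRD1Alb, 1.28 and 0.893 CPM in refed WT, and 33.6 and 10.3 CPM in the refed libraries labelled HRD1Alb. Every sample labelled HRD1Alb lay above every WT sample. It rose by 4.33 (SE 0.59, edgeR adjusted p = 0.0113) refed, with 3.23 and 4.94 without replicate 1 and 2, and was at 2.60 (SE 0.57, edgeR adjusted p = 0.0742) fasted. Odc1, ornithine decarboxylase, rose by 1.15 (SE 0.16, edgeR adjusted p = 0.0121). Car5a, the mitochondrial carbonic anhydrase that supplies bicarbonate to the urea cycle, fell by 1.48 (SE 0.22, edgeR adjusted p = 0.0140) and Slc38a4, an amino acid transporter gene, by 0.65 (SE 0.15, edgeR adjusted p = 0.0365). Gls2, the periportal glutaminase that opposes Glul, was at -0.75 (SE 0.22, edgeR adjusted p = 0.0680). Gls2 was at -0.48 and -1.10 without replicate 1 and 2 of the libraries labelled HRD1Alb. After length correction it was at -0.87 (edgeR adjusted p = 0.0259), where 16.9% of all genes were called. Glud1, glutamate dehydrogenase, was at -0.16 (SE 0.15, edgeR adjusted p = 0.471). On refeeding in libraries labelled HRD1Alb 4 of 17 rose and 3 fell, beside 10.5% of all genes called, among them Odc1 (1.57) and Glud1 (0.80) upward and Got1 (-1.14), a transaminase, downward. In WT 1 fell, Got1 (-1.44, SE 0.24, edgeR adjusted p = 0.0336), and Glud1 was at 0.76 (SE 0.15, edgeR adjusted p = 0.0540). Between fasted genotypes 0 of 17 were called by edgeR, beside 1.35% of all genes, and 0 by limma-trend. An unadjusted p under 0.05 was seen for 4, beside 18.4% of all genes, and DESeq2 called 1 upward and 2 downward, beside 7.64%. Glul and Oat, the enzymes of this set among the 9, differed by 0.04 and -0.37 between refed genotypes.

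The genes whose levels followed 3 of the 9 most closely were listed over all 8 samples among 11927 genes, by Pearson's r of log2 CPM, as a description of these samples, which share 4 groups and the 2 libraries that stood apart. For Glul they were BC026590 (0.988), Slc25a17 (0.983), Dgat2 (0.982), Pwp2 (0.978) and Mid1ip1 (0.977). For Axin2 they were Tbl2 (0.994), Tm9sf3 (0.990), Tc2n (0.966), Arl1 (0.964) and Vwf (0.958). For Lgr5, the gene with the lowest level, they were Mcph1 (0.910), Ephb4 (0.903), Lrrc32 (0.886), Zbtb12 (0.870) and Smad6 (0.848). No other gene of the group of 9 and none of the Wnt pathway genes listed above was among these 15.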

How the data were processed

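Counts of reads per gene symbol, as whole numbers without normalization, were deposited by the authors in 1 file per sample. The paper names ERANGE for counting after Illumina NextSeq sequencing, whereas the submitters' processing notes list cutadapt, STAR, HTSeq, DESeq2 and the build mm10, and the annotation is not given in the sources used here. Reads of overlapping or near-identical genes could be split differently by these counters. The strand setting is likewise not given.

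Genes were tested with edgeR 4.0.16 in R 4.3.3 (TMM scaling, filterByExpr with a minimum count of 10 and a minimum total of 15, quasi-likelihood tests with 1 coefficient for each of the 4 groups over all 8 samples). Benjamini-Hochberg values were taken over 14328 genes and called under 0.05. The study's own test was a moderated limma test weighted by intensity. Alternatives were limma-trend (limma 3.58.1), DESeq2 1.42.0, DESeq2's size factors, other filters, separate fits, a replicate block, exon length correction and leaving out each library. Scripts were tested on simulated counts. A count of 0 allows up to 3 counts, 0.0508 to 0.0788 CPM by library, for counting error only. Exon lengths and positions came from GENCODE M21 on GRCm38, with a length for 90.3% of tested genes, and promoters from RefSeq. Levels per kilobase divide CPM by the union of a gene's exons.

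Named genes were the 9 genes, up to 4 called genes per list, comparison and direction, 13 genes given whatever they did (Wnt2, Wnt9b, Rspo3, Ctnnb1, Lgr4, Lrp5, Lrp6, Tcf7l2, Cyp2e1, Cyp1a2, Gls2, Glud1 and Cyp2f2), and Syvn1. The result of 1 called gene under this rule is not reported here. The members, lists and alternatives were chosen with earlier results of these data known, and alternatives for genes other than the 9 were added after seeing the data.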

Additional observations from a re-analysis of the deposited data

How the results depend on the processing

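Of 756 values of the 9 genes under alternatives, 708 kept direction and side of the threshold, 22 came to pass it and 26 changed sign. Of 1443 values of other named genes 1053 kept both, 29 came to pass it, 351 no longer passed and 10 changed sign. The count of the 9 called was 0 in the fasted genotype comparison under every alternative run. In the refed one it was 1 (Oat) after length correction, where 16.9% of all genes were called, and 1 (Oat) with length correction and a replicate block, where 15.6% were, and 0 to 4 without single libraries. In WT refeeding it was 1 (Rnf43) with DESeq2 (7.89% of all genes) and 1 (Rnf43) with only the samples compared (14% of all genes), and 0 to 1 without single libraries. In HRD1Alb refeeding it was 2 (Glul and Slc1a2) with DESeq2 (20.8% of all genes) and 0 to 6 without single libraries, and for the interaction 0 to 3. The cause was not tested.

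With replicate number added as a block, 0 of the 9 genes were called in all 5 comparisons, and of the calls of other named genes 2 of 6 held between fasted genotypes, 23 of 29 between refed genotypes, 3 of 4 in WT refeeding and 15 of 20 in HRD1Alb refeeding. Between refed genotypes the calls of Fzd4 (adjusted p = 0.0536), Tcf7l1 (0.0643), Myc (0.0519), Dkk3 (0.0668), Cyp2c54 (0.0505) and Egfl7 (0.0661) were those lost with this edgeR fit. The numbers were not taken as pairs, since same-numbered deviations correlated at 0.0161 to 0.179 in the 6 pairs of groups.

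Signs changed as follows. The refed genotype value of Glul became -0.086 and -0.088 with length correction without and with the block, the fasted genotype value of Znrf3 became 0.00541 and the HRD1Alb refeeding value of Oat 0.00154 with only the samples compared. The fasted genotype value of Lrp6 became -0.00224 with DESeq2 and with its size factors. Without single libraries, fasted genotype values ran from -0.26 to 1.09 for Lgr5, -0.20 to 0.58 for Rnf43, -0.24 to 0.23 for Znrf3, -0.43 to 0.17 for Slc1a2, -0.21 to 0.61 for Wnt2, -0.014 to 0.70 for Rspo3 and -0.032 to 0.093 for Lrp6. Refed genotype values ran from -0.020 to 0.10 for Glul, -0.45 to 0.60 for Axin2, -0.86 to 0.15 for Tbx3, -0.20 to 0.33 for Wnt9b, -0.46 to 0.025 for Ctnnb1 and -0.32 to 0.10 for Cyp1a2. WT refeeding values ran from -0.033 to 0.26 for Rhbg, -0.34 to 0.12 for Znrf3 and -0.49 to 0.12 for Slc1a2, HRD1Alb refeeding values from -0.40 to 0.51 for Lgr5 and -0.16 to 0.13 for Oat, and the interaction of Axin2 from -0.90 to 0.16. Depth limits chiefly Lgr5, with 148 to 643 reads per library.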
